A study of Mus musculus with 4 samples.

Results

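Cytoplasmic polyadenylation lengthens the poly(A) tail of a stored mRNA in the cytoplasm. The genes of this machinery described here are the CPE-binding protein genes Cpeb1, Cpeb2, Cpeb3 and Cpeb4, the RNA-binding protein gene Dazl, and the cleavage and polyadenylation specificity factor (CPSF) genes Cpsf1, Cpsf2, Cpsf3 and Cpsf4 with Sympk, which encodes the scaffold symplekin. They were chosen by symbol, for what their proteins do and not for their values. All 10 were found, each on 1 row, among the 23309 gene symbols of every library.

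A fully grown oocyte is almost silent in transcription, so its proteins are made from mRNA stored with short tails. CPEB1 binds a U-rich cytoplasmic polyadenylation element (CPE) in the 3′ untranslated region and holds such messages silent. Phosphorylation of CPEB1 when meiosis resumes lets CPSF, which reads the AAUAAA-type polyadenylation signal, and a cytoplasmic poly(A) polymerase extend the tail. DAZL is a germ cell RNA-binding protein that promotes translation of oocyte messages, many of which CPEB1 also binds. In maturing mouse oocytes, ERK signalling is known to act upstream of CPEB1.

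The study sequenced mRNA from mouse oocytes of the ICR strain, in 1 library for each of 4 groups. The groups were wild type at the germinal vesicle (GV) stage, before meiosis resumes, Erk-/- at GV, wild type at MII (the mature egg, held in the second meiotic metaphase) and Erk-/- at MII. Per the labels, females were 21 to 23 days old and received PMSG and hCG, which stimulate follicles and trigger maturation, and each lysate pooled 60 oocytes or embryos. The labels name neither the Erk allele nor a Cre driver, their design text speaks of single oocytes, and their treatment text names Btg4-/- and not Erk-/- females. The kit extracted total RNA and mRNA was then purified, and whether this used the poly(A) tail is not stated in the labels. A difference in transcript level and a difference in tail length at capture therefore cannot be told apart.

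Values are FPKM, fragments scaled to transcript length and sequencing total, which are relative to the library's own total and not mRNA per oocyte. Brackets after a value hold the authors' lower and upper bounds, which cover error within a library. With 1 library per group no comparison could be tested, so a gene was counted as higher or lower by a rule of size, a 2-fold ratio of FPKM + 1, over the 9990 genes whose mean was 1 FPKM or more. Of the 10 genes, 9 met this mean, and Cpeb2 did not. Folds quoted for a gene are ratios of FPKM without the added 1, and none is given against a value listed at 0, because an exact 0 can be a failed estimate.

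Whole-library values that touch these results are as follows. Summed FPKM lay between 401160 and 453226. Wild-type MII stood apart from the rest, with 7265 symbols of at least 1 FPKM against 8909 to 9253 in the other 3 libraries, and 14175 of the 23309 symbols listed at 0 against 12481 to 13643. Its part in the differences described below, for which it was often the low library, was not tested. All 8 oocyte markers examined had at least 1 FPKM in every library, with sums of 6540 in wild-type MII and 9640 to 16400 in the others. Of 12 granulosa and cumulus cell markers, 2 to 4 reached 1 FPKM, the sums were 14.7 to 29.4, and Fshr, Foxl2, Amh, Inhba and Star were at 0 in all 4 libraries. The highest of the 12 was Cyp19a1 in wild-type GV (15.5 FPKM), wild-type MII (21.8) and Erk-/- MII (10.8). In Erk-/- GV the highest was Nr5a2 (17 FPKM). Blood and immune markers summed to 0 to 6.79, and endothelial and stromal markers to 27.1 to 64.3, mostly Pecam1, with Cdh5, Col1a1, Col1a2 and Col3a1 at 0 throughout. At GV, Mapk3, which encodes ERK1, had 333 FPKM in wild-type and 52.3 (44.3 to 54.5) in Erk-/- oocytes, and at MII 25.7 (21.5 to 27.2) in wild-type oocytes and 34.3 (28.9 to 35.4) in those labelled Erk-/-. For the value of 333 no bounds are given, because it lay above its own upper bound in the deposited table, as did 709 to 1018 rows of each library. Mapk3 was lower in the Erk-/- than in the wild-type library at GV only, so the mature Erk-/- library is named below by its label alone, as labelled Erk-/-.

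The CPE was searched as TTTTAT or TTTTAAT and the polyadenylation signal as AATAAA or ATTAAA, on the mRNA strand alone. The search covered only the 3′ untranslated region of the longest complete protein-coding transcript of each gene in GENCODE M21 (build GRCm38). Several of these messages carry the element that their own protein family binds, and in 17 places a CPE starts no more than 100 bases before a signal. The stretches of 30 bases below show, of these, the closest CPE and signal in Cpeb1, Cpeb2 and Cpsf2 and the 3 closest in Cpeb4. Capitals mark the CPE and, where it falls in the stretch, the signal. In each of the first 2 stretches from Cpeb4 the CPE and the signal overlap, with starts 4 bases apart.
Cpeb4, chr11:31933767-31933796, plus strand: ataaTTTTAATAAAttttattttcttatat
Cpeb4, chr11:31935414-31935443, plus strand: cattTTTTATTAAAgtcattttcacgttaa
Cpeb4, chr11:31934903-31934932, plus strand: ttgtTTTTAATtgcagacATTAAAaaatgt
Cpeb2, chr5:43289467-43289496, plus strand: cgttTTTTATttttttctaAATAAAaagag
Cpsf2, chr12:102004233-102004262, plus strand: gcatTTTTATaaggtaacagtgtgatttaa
Cpeb1, chr7:81347468-81347497, minus strand: aagtTTTTAATcacagtcacaggacttttt
All lie in 3′ untranslated sequence. In Cpeb2 the starts of CPE and signal are 15 bases apart, in the third stretch from Cpeb4 14, in Cpsf2 25 and in Cpeb1 47.

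Cpeb4 held 17 CPEs in 4102 bases of 3′ untranslated region, and 7 of them lay within reach of a signal. Cpeb2 held 24 in 3778 bases, again with 7 within reach. Regions of a length within 10% of these held a median of 5 CPEs in each case, so both stood above the median for their length. Dazl held 6 CPEs in 1852 bases, against a median of 2, and none within reach of a signal. Cpeb1 held 4 in 1315 bases with 1 within reach, Cpeb3 6 in 3569 with 0, Cpsf2 8 in 3203 with 2 and Cpsf4 2 in 836 with 0. The medians for regions of like length were 1, 4, 4 and 1 in this order, so these genes stood above theirs as well. The regions of Cpsf1 (79 bases), Sympk (100) and Cpsf3 (307) held no CPE. Of 20858 genes, 56.4% held a CPE and 28.8% held one within reach of a signal. None of the 10 had a CPE in its last 150 bases, where 23.4% of 18650 regions of at least that length had one. The regions of Cpsf1 and Sympk are too short to belong to those 18650. The CPE nearest to an annotated end was in Cpeb2, 159 bases before it. A match is a description of these letters and not a site shown to be bound.

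**Figure D1:**
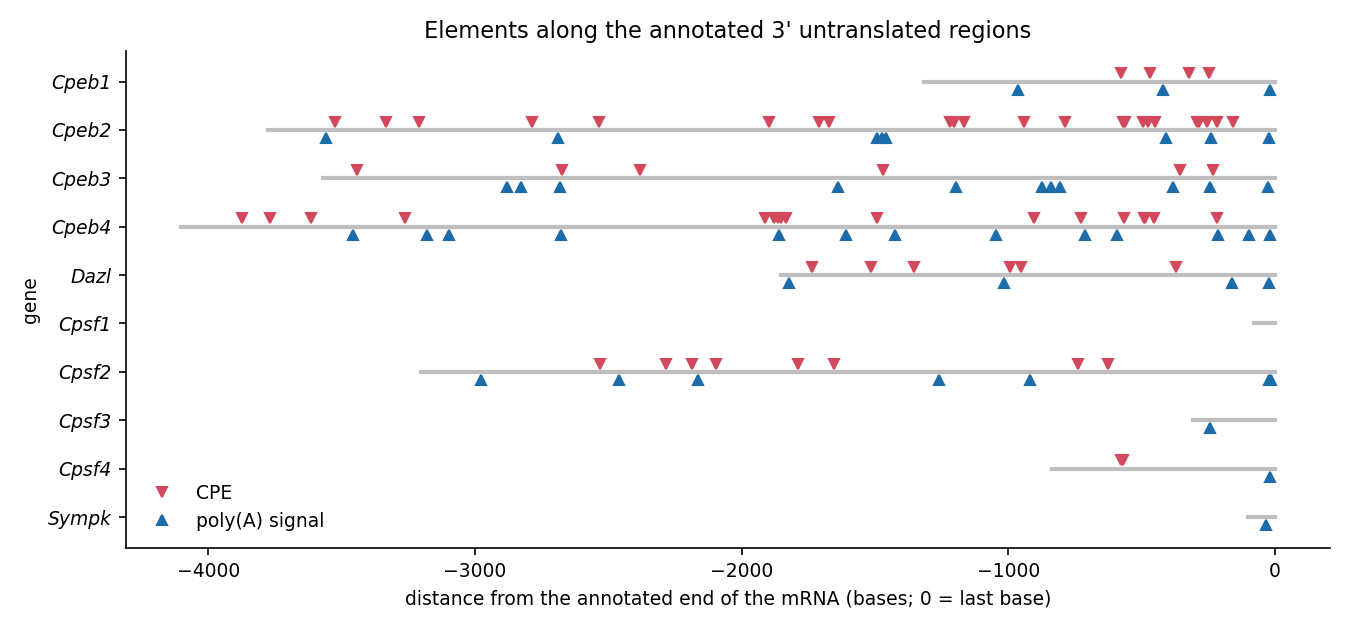
Positions of CPEs (red, pointing down) and polyadenylation signals (blue, pointing up) along the annotated 3′ untranslated region of each gene (grey line), in bases before the end of the mRNA. Cpeb4 and Cpeb2 carry 17 and 24 CPEs, and Cpsf1, Cpsf3 and Sympk have short regions with 0.

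Cpeb1, the founding CPE reader of the oocyte, was the most abundant of the 10 genes in both GV libraries and stood below Dazl in wild-type MII. It spans positions 88491912 to 88599644 of mm9 chromosome 7. At GV, Cpeb1 had 376 FPKM (370 to 390) in wild-type and 418 (413 to 434) in Erk-/- oocytes, and at MII 21.6 (19.8 to 23.4) in wild-type oocytes and 73.6 (69.9 to 77.6) in those labelled Erk-/-. The GV libraries were high and the MII libraries low in both genotypes, and no bounds overlapped. Its rank of abundance among genes above 0 was 162 of 10057 in wild-type and 135 of 9666 in Erk-/- oocytes at GV, and 2439 of 9134 and 1064 of 10828, respectively, at MII. The mature level was 5.73% of the GV level in wild type, or 17.4-fold lower (log2 ratio -4.06), and 17.6%, or 5.68-fold lower (-2.49), in the pair labelled Erk-/-. Between genotypes the ratio was 1.11-fold at GV (log2 ratio 0.15) and 3.41-fold at MII (1.72), higher in the Erk-/- library both times. On the log2 scale, the maturation ratio labelled Erk-/- exceeded that of wild type by 1.57.

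Cpeb4, whose protein takes over CPE binding late in meiosis in frog oocytes, had the opposite pattern. It spans 31772211 to 31831577 of mm9 chromosome 11. At GV, Cpeb4 was listed at 0 in either genotype, whereas at MII it reached 22.4 FPKM (19.3 to 23.9) in wild-type oocytes and 23.1 (19.9 to 24.7) in those labelled Erk-/-. The bounds at MII overlapped, and the level labelled Erk-/- was 103% of wild type, with a log2 ratio of 0.04 as deposited and -0.29 after median-of-ratios scaling. The log2 ratio from GV to MII was 4.55 in wild type and 4.59 in the pair labelled Erk-/- with 1 FPKM added, and 7.81 and 7.86 with 0.1 added, so its size is set by the added value. Of 2244 genes with at least 20 FPKM in both MII libraries, 2 were listed at 0 in both GV libraries, Cpeb4 and AA474331, the second of which was named after its values were seen. The cutoff of 20 FPKM lies just below the MII values of Cpeb4 itself, so this count describes its pattern and is no test of it. Pim1, also at 0 in both GV libraries, had 29.1 FPKM in wild-type MII and missed the cutoff with 17.9 in the MII library labelled Erk-/-.

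Cpeb3, a paralog that binds U-rich sequence and is best known from neurons, lay between 9.14 and 16.4 FPKM in all 4 libraries. It spans 37095781 to 37281783 of mm9 chromosome 19. At GV, Cpeb3 had 16.4 FPKM (15.2 to 17.5) in wild-type and 9.14 (8.23 to 10.1) in Erk-/- oocytes, and at MII 12.9 (11.9 to 13.9) in wild-type oocytes and 13.4 (12.4 to 14.5) in those labelled Erk-/-. The Erk-/- GV library was the low one, 1.79-fold below wild-type GV, and the MII bounds overlapped. Maturation ratios were -0.32 in wild type and 0.50 in the pair labelled Erk-/-, but scaling turned the first to 0.14, and the genotype ratio at MII from 0.05 to -0.28.

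Cpeb2, the remaining paralog, was close to the floor of these data. It spans 43624702 to 43680963 of mm9 chromosome 5. At GV, Cpeb2 was listed at 0 in wild-type oocytes and had 0.955 FPKM (0.69 to 1.22) in Erk-/- oocytes, and at MII 0.305 (0.172 to 0.437) in wild-type oocytes and 0.931 (0.699 to 1.16) in those labelled Erk-/-. The values were highest in the libraries of the Erk-/- pair, where they did not reach 1 FPKM. Its mean of 0.548 FPKM was below the filter, and it enters no count. Genes annotated across parts of Cpeb2 and Cpeb3, Gm7854 and A330032B11Rik, were at 0 in all 4 libraries.

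As FPKM is scaled by transcript length, the 4 paralogs can be set beside each other as shares of the family's summed FPKM. Cpeb1 made up 95.8% of 393 FPKM in wild-type GV and 97.6% of 428 in Erk-/- GV. In wild-type MII the sum was 57.2 FPKM, of which Cpeb4 held 39.1%, Cpeb1 37.7% and Cpeb3 22.6%. In the MII library labelled Erk-/- the sum was 111, and Cpeb1 still held 66.3%, Cpeb4 20.8% and Cpeb3 12.1%. The ratio of Cpeb1 to Cpeb4 within a library, which no scaling between libraries can change, was 0.964 at MII in wild type and 3.19 in the library labelled Erk-/-. In wild-type MII the bounds of Cpeb4 and Cpeb1 overlapped, so their order there is not given.

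**Figure D2:**
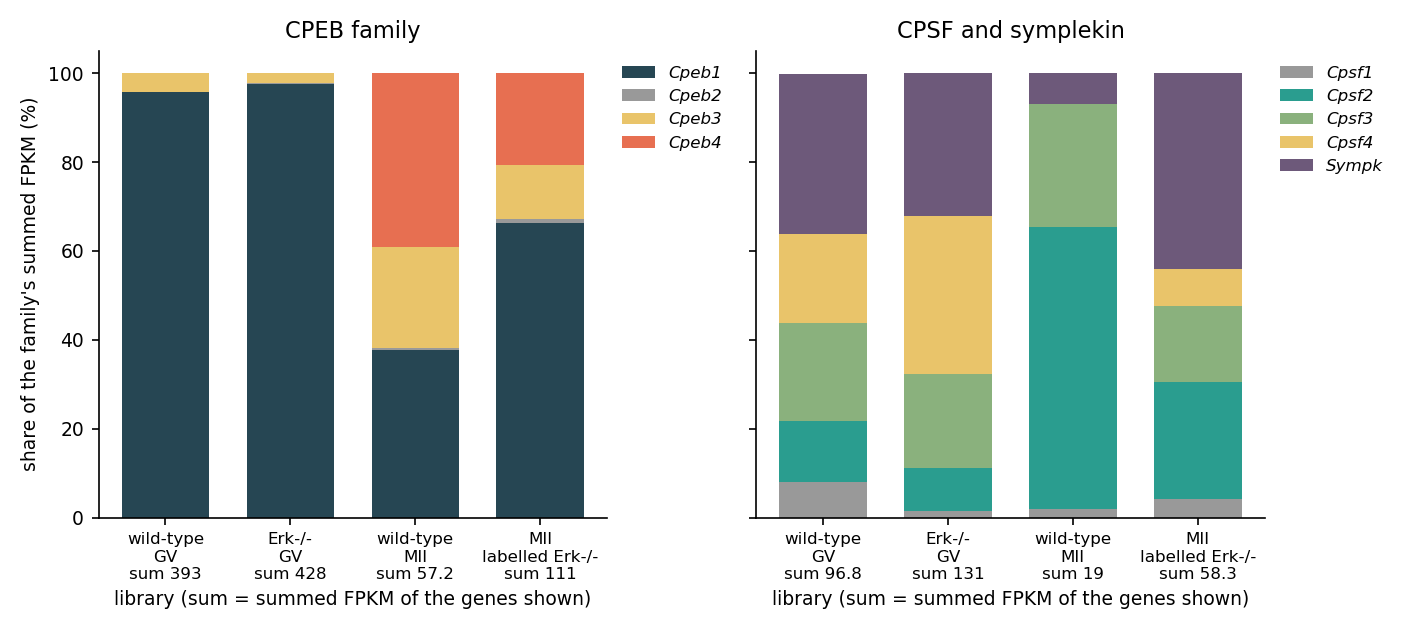
Share of each gene in the summed FPKM of its family (y axis, percent) in the 4 libraries (x axis, with the sum in FPKM under each name), for the CPEB family (left) and for CPSF with symplekin (right). Cpeb1 takes 95.8% and 97.6% of the CPEB sum at GV and 37.7% and 66.3% at MII, and Cpsf2 goes from 13.6% in wild-type GV to 63.4% in wild-type MII.

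Dazl differed less between the libraries than Cpeb1. It spans 50418719 to 50432924 of mm9 chromosome 17. At GV, Dazl had 73.8 FPKM (67.0 to 74.6) in wild-type and 75.9 (68.6 to 77.6) in Erk-/- oocytes, and at MII 50.3 (45.4 to 51.4) in wild-type oocytes and 84.7 (77.2 to 85.8) in those labelled Erk-/-. Wild-type MII was the low library, at 68.1% of wild-type GV and 1.68-fold below the MII library labelled Erk-/-. The bounds of the 2 GV libraries overlapped, as did those of the pair labelled Erk-/-. Maturation ratios on the log2 scale were -0.54 in wild type (-0.07 under median-of-ratios scaling) and 0.16 in the pair labelled Erk-/-, so Dazl met the 2-fold rule in no comparison. Within libraries, Cpeb1 stood at 5.10 times Dazl in wild-type and 5.51 times in Erk-/- oocytes at GV, and at 0.429 and 0.869 times at MII. In the last of these libraries the bounds of Dazl and Cpeb1 overlapped.

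Among the CPSF genes, Cpsf3 encodes the endonuclease that cuts nuclear pre-mRNA. It spans 21292158 to 21320917 of mm9 chromosome 12. At GV, Cpsf3 had 21.4 FPKM (18.6 to 23.2) in wild-type and 27.4 (23.8 to 29.6) in Erk-/- oocytes, and at MII 5.28 (4.27 to 6.23) in wild-type oocytes and 9.89 (8.32 to 11.4) in those labelled Erk-/-. Both MII libraries were below both GV libraries, 4.06-fold in wild type (log2 ratio -1.84) and 2.77-fold in the pair labelled Erk-/- (-1.38), with no overlap of bounds.

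Cpsf2 encodes the catalytically inactive partner of that endonuclease. It spans 103214184 to 103244203 of mm9 chromosome 12. At GV, Cpsf2 had 13.2 FPKM (12.0 to 14.3) in wild-type and 12.8 (11.6 to 14.1) in Erk-/- oocytes, and at MII 12.0 (10.9 to 13.0) in wild-type oocytes and 15.5 (14.2 to 16.7) in those labelled Erk-/-. The first 3 libraries had overlapping bounds, and the MII library labelled Erk-/- was 1.29-fold above wild-type MII. The wild-type maturation ratio of -0.12 turned to 0.33 under scaling, and the genotype ratio at GV from -0.03 to 0.05.

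Cpsf4 and Cpsf1 belong to the part of the complex that recognises the polyadenylation signal, Cpsf4 encoding a zinc finger protein that contacts the signal and Cpsf1 the large scaffold subunit. Cpsf4 spans 145928093 to 145942909 of mm9 chromosome 5. At GV, it had 19.4 FPKM (15.6 to 21.0) in wild-type and 46.3 (38.4 to 47.9) in Erk-/- oocytes, and at MII it was listed at 0 in wild type and had 4.91 (3.6 to 6.13) in the library labelled Erk-/-. The GV libraries were high, Erk-/- 2.39-fold above wild type, and the MII library labelled Erk-/- was 9.44-fold below its GV counterpart. Between genotypes at MII, the log2 ratio over the value at 0 was 2.56 with 1 FPKM added and 5.65 with 0.1 added. Being at 0 in wild-type MII was shared by 286 of the 3710 genes (7.71%) with at least 15 FPKM in both GV libraries. Cpsf4 is itself among the 286. The cutoff of 15 FPKM lies below the wild-type GV value of Cpsf4, so this share describes its pattern and is no test of it. A near relative that is not counted among the 10, Cpsf4l, was far more abundant, with 627 FPKM in wild-type and 945 in Erk-/- oocytes at GV, and 7.99 against 44.8 at MII. The sequences of these 2 genes were not compared, and the handling of reads that match several places is not given in the sources used here. Whether any reads were divided between the 2 genes is therefore unknown.

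Cpsf1 was the lowest of the CPSF genes at GV. It spans 76426238 to 76438021 of mm9 chromosome 15. At GV, Cpsf1 had 7.77 FPKM (6.91 to 8.63) in wild-type and 1.86 (1.40 to 2.32) in Erk-/- oocytes, and at MII 0.367 (0.184 to 0.551) in wild-type oocytes and 2.38 (1.92 to 2.84) in those labelled Erk-/-. Wild-type GV was high, wild-type MII low, and the libraries of the Erk-/- pair lay between them with overlapping bounds. Log2 ratios were -2.68 for wild-type maturation, 0.24 for the pair labelled Erk-/-, -1.62 between genotypes at GV and 1.31 at MII. Without the added 1, wild-type MII was 21.2-fold below wild-type GV and 6.48-fold below the MII library labelled Erk-/-. With 0.1 FPKM added, the log2 ratios were -4.07 for wild-type maturation and 2.41 at MII, and the difference of maturation ratios 4.41 in place of 2.92. The neighbouring gene Adck5, which shares 4 bases with Cpsf1 in the files' loci, was at 10.4 FPKM in wild-type GV and at 0 in the other 3 libraries, and its part in the Cpsf1 value was not tested.

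Of the 10 genes, among those above 0 in both MII libraries, Sympk differed most between genotypes there. Symplekin holds CPSF together and, in the cytoplasm, links it to CPEB1 and the poly(A) polymerase. The gene spans 19609726 to 19639971 of mm9 chromosome 7. At GV, Sympk had 35.0 FPKM (32.2 to 36.9) in wild-type and 42.2 (38.7 to 45.0) in Erk-/- oocytes, and at MII 1.29 (0.963 to 1.63) in wild-type oocytes and 25.7 (23.4 to 27.5) in those labelled Erk-/-. Wild-type MII stood alone at the bottom, and no bounds overlapped. Its mature level was 3.70% of the GV level in wild type (27.1-fold lower, log2 ratio -3.97) and 60.8% in the pair labelled Erk-/- (1.65-fold lower, -0.70). At MII the library labelled Erk-/- was 19.8-fold above wild type (log2 ratio 3.54), a ratio exceeded by 2.17% of the 9990 genes. Relative to Cpsf2 in the same library, Sympk stood at 2.66 times in wild-type and 3.29 times in Erk-/- oocytes at GV, and at 0.108 and 1.66 times at MII.

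The 5 CPSF and symplekin genes together summed to 96.8 FPKM in wild-type and 131 in Erk-/- oocytes at GV, and to 19.0 against 58.3 at MII. The make-up of the sum differed as well as its size. Sympk held 36.2% in wild-type and 32.3% in Erk-/- oocytes at GV, and 6.83% against 44.0% at MII. Cpsf2 held 13.6% and 9.83% at GV, and 63.4% against 26.5% at MII, in the same order. The share of Cpsf2 was highest in the library with the lowest sum, and its own level differed by no more than 1.29-fold between the genotypes.

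**Figure D3:**
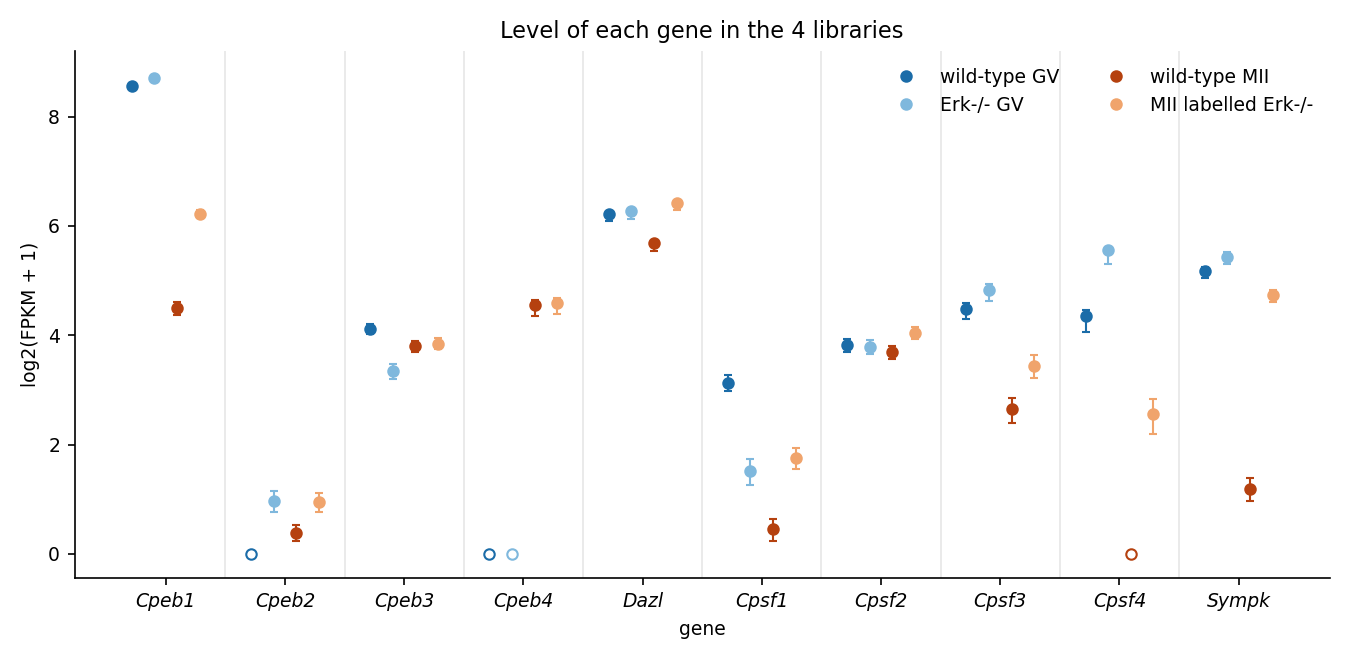
Level of the 10 genes as log2(FPKM + 1) (y axis) in the 4 libraries, with the authors' bounds as bars and open circles for values listed at 0. Cpeb1 and Sympk are lowest in wild-type MII (21.6 and 1.29 FPKM), Cpeb4 is seen at MII only, and Cpsf2 lies between 12.0 and 15.5 FPKM in all 4 libraries.

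Set out by comparison, wild-type maturation had 5 of the 9 genes at least 2-fold lower at MII (Cpeb1, Cpsf1, Cpsf3, Cpsf4 and Sympk), where 49.6% of all genes were lower, and 1 higher (Cpeb4), where 20.6% were. The median log2 ratio was -1.84 for the 9 genes and -0.97 for all. In the pair labelled Erk-/-, 3 were lower (Cpeb1, Cpsf3 and Cpsf4) against 35.6% of all genes, and 1 was higher (Cpeb4) against 22.9%, with medians of 0.16 and -0.26. These shares are near the background, so neither count sets the machinery apart from other genes.

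At GV, 1 gene was higher in Erk-/- (Cpsf4) where 18.4% of all genes were, and 1 lower (Cpsf1) where 22.9% were. The medians were 0.04 and -0.06. At MII, 4 were higher in the library labelled Erk-/- (Cpeb1, Cpsf1, Cpsf4 and Sympk) where 31.4% of all genes were, and 0 lower where 7.43% were. The medians were 0.79 and 0.31, and 9 of 9 ratios were above 0 (not those of Cpeb3 and Cpeb4 after scaling), as were those of 60.5% of all genes. Of all genes that met the rule at MII, 80.9% were higher in the library labelled Erk-/-, and 68.0% under median-of-ratios scaling.

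For the difference of the maturation ratios, the same 4 genes were at least 2-fold higher in the labelled Erk-/- pair, where 41.2% of all genes were, and 0 lower, where 18.8% were. The medians were 0.82 and 0.59, and 68.7% of the calls over all genes were higher, or 58.9% under scaling. Median-of-ratios scaling shifts each library so that the median gene of at least 1 FPKM in all 4 libraries is level, and with it the all-gene median shifted by 0.39 (wild-type maturation), -0.25 (genotype at MII) and -0.35 (the difference), and by 0.06 or less for the other 2 comparisons. All 5 comparisons draw on the same 4 libraries, so a low value in wild-type MII enters 3 of them alike.

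**Figure D4:**
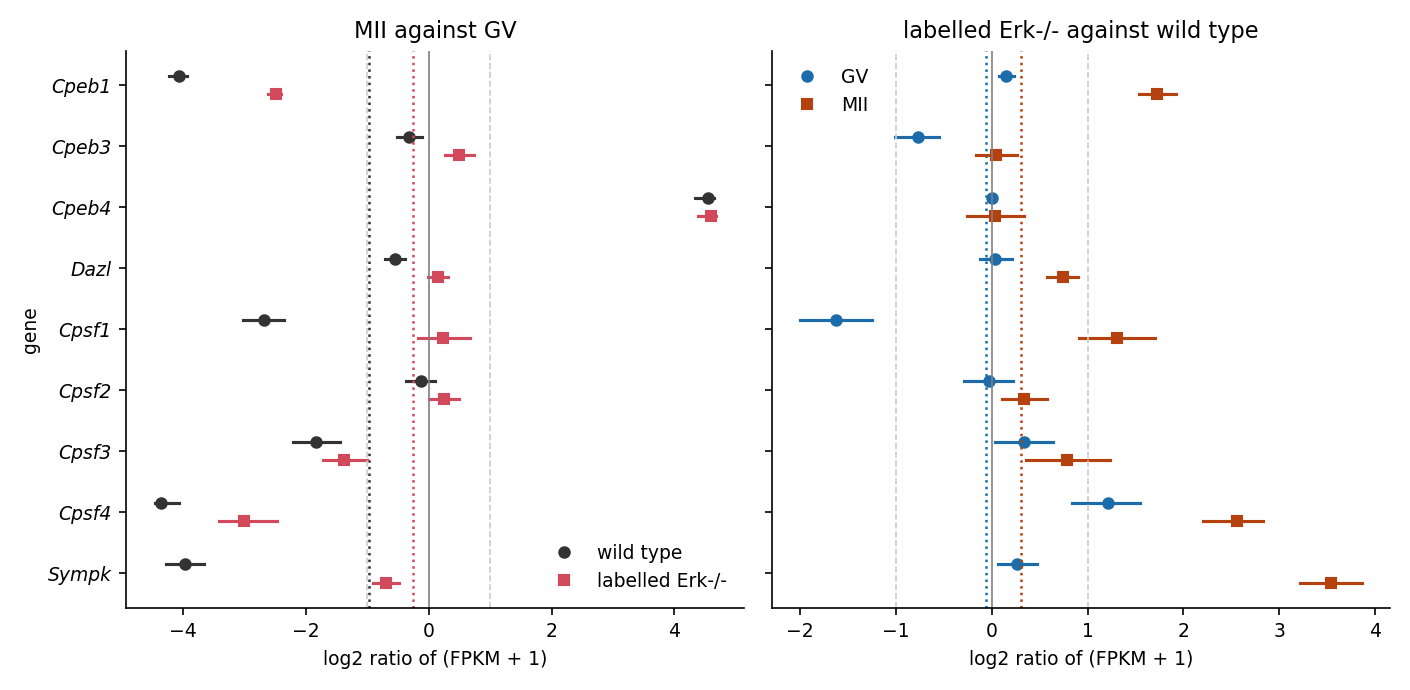
Log2 ratios of FPKM + 1 (x axis) for the 9 genes above the filter, with bars from the authors' bounds; left, MII against GV for each genotype; right, labelled Erk-/- against wild type for each stage. Dotted lines are the medians of all 9990 genes in the matching colour and dashed lines mark the 2-fold rule. In wild type, Cpsf4 (-4.35), Cpeb1 (-4.06) and Sympk (-3.97) lie far left in the first panel, and at MII Sympk (3.54), Cpsf4 (2.56) and Cpeb1 (1.72) lie right in the second.

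In order of level, wild-type GV ran Cpeb1, Dazl, Sympk, then Cpsf3, Cpsf4 and Cpeb3, whose neighbours had overlapping bounds, then Cpsf2 and Cpsf1. Erk-/- GV kept Cpeb1 and Dazl at the top, followed by Cpsf4 and Sympk with overlapping bounds. Wild-type MII was led by Dazl, followed by Cpeb4 and Cpeb1 and by Cpeb3 and Cpsf2, 2 pairs with overlapping bounds. In the MII library labelled Erk-/-, the overlapping pairs were Dazl and Cpeb1, Sympk and Cpeb4, and Cpsf2 and Cpeb3.

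The genes whose profile over the 4 libraries was most like that of a given gene were sought among 5277 genes that stand on 1 row of the files and have a mean of 10 FPKM or more, by the Euclidean distance between mean-centred log2(FPKM + 1) values. With 4 points a short distance is easily reached, and it is given as a description. For Cpeb1 the nearest were Emg1 (distance 0.05; 133, 155, 7.17 and 25.7 FPKM in the order wild-type GV, Erk-/- GV, wild-type MII, labelled Erk-/- MII), Ino80e (0.08) and Exosc4 (0.09). For Dazl they were Pcnx (0.11), Son (0.15) and Ddx19b (0.17). Cpeb4 had no such close match, the nearest being Pim1 (0.51; 0, 0, 29.1 and 17.9 FPKM), Prrg1 (0.68) and Foxn2 (0.70). Among the 9 genes, the closest pair was Dazl and Cpsf2, at 0.39.

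Messages known as CPEB1 or DAZL targets in maturing oocytes were mostly higher at MII. Of 13 such messages, 11 were at least 2-fold higher at MII in wild type and 9 in the pair labelled Erk-/-, with 0 lower in either and medians of 2.11 and 1.64. Of all genes, 20.6% and 22.9% were higher and 49.6% and 35.6% lower in these comparisons, and the list was chosen with earlier results of these data known. At MII 0 of 13 met the rule between genotypes, and for the difference of maturation ratios 4 were lower, with medians of -0.38 and -0.66. Of all genes, 31.4% were higher and 7.43% lower at MII, and 41.2% and 18.8% for the difference. After scaling, 4 of the 13 were lower at MII and 7 for the difference, with medians of -0.73 and -1.11. Among all 9990 genes, 1260 and 2424 were lower under the same scaling. At GV, Btg4, the adaptor that brings a deadenylase to maternal mRNA, had 216 FPKM in wild-type and 250 in Erk-/- oocytes, and at MII 2990 in wild-type oocytes and 1560 in those labelled Erk-/-. Plat, which encodes tissue plasminogen activator and is a textbook case of tail lengthening, had 400, 654, 3370 and 3120 FPKM in that order, and Cnot7, a deadenylase subunit, 53.4, 59.4, 459 and 286.

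Of 13 partners of the CPEB complex above the filter (of 14 listed), 6 were lower and 2 higher at MII in wild type, and 4 lower and 1 higher in the pair labelled Erk-/-, with medians of -0.84 and -0.53, beside 49.6% lower and 20.6% higher, and 35.6% and 22.9%, of all genes. At MII 4 were higher in the library labelled Erk-/- and 0 lower, with a median of 0.25 that scaling took to -0.09. For the difference of maturation ratios 7 were higher and 1 lower. Of all 9990 genes, 31.4% were higher and 7.43% lower at MII, and 41.2% and 18.8% for the difference. After scaling, 5 partners were higher and 1 lower for the difference, beside 3474 and 2424 of all genes. The counts of lower genes in maturation and of higher genes at MII were near the background, as was the scaled count of higher genes for the difference. These counts therefore say nothing particular of the partners. Eif4enif1 encodes 4E-T, a repressor that binds the cap-binding protein and stands beside CPEB in silent messages. At GV, it had 269 FPKM in wild-type and 339 in Erk-/- oocytes, and at MII 39.0 in wild-type oocytes and 215 in those labelled Erk-/-. Tacc3, whose product acts on the spindle, had 545, 480, 4.49 and 19.7 FPKM in that order. Lsm14a, a component of repressed mRNA particles, was higher at MII instead, with 92.3, 111, 378 and 314.

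The nuclear partners of CPSF were mixed. Of 14 above the filter (of 15 listed), 4 were lower and 2 higher at MII in wild type, and 6 lower and 2 higher in the pair labelled Erk-/-, with medians of -0.36 and -0.39, beside the same all-gene shares. Between genotypes 3 were higher and 2 lower at GV, and 5 higher and 1 lower at MII. Of all genes 18.4% were higher and 22.9% lower at GV, and 31.4% and 7.43% at MII. After scaling 4 were higher and 4 lower in wild-type maturation, with a median of 0.02, and 2 were higher and 2 lower at MII. Under the same scaling, 2565 of all 9990 genes were higher and 4409 lower in wild-type maturation, and 2675 and 1260 at MII. At GV, Pabpn1, the nuclear poly(A)-binding protein gene, had 40.3 FPKM in wild-type and 26.1 in Erk-/- oocytes, and at MII 209 in wild-type oocytes and 148 in those labelled Erk-/-. Papolg, a nuclear poly(A) polymerase gene, had 15.9, 12.0, 0.540 and 3.36 in that order. Fip1l1, whose product tethers the poly(A) polymerase to CPSF, had 159, 191, 92.3 and 138. Nudt21, the 1 counted as lower at MII, had 16.9, 0, 11.9 and 4.22, and Cstf1 had 47.7, 42.6, 101 and 51.5. Of 4 relatives of DAZ and CPSF proteins, 2 were lower and 1 higher in wild-type maturation (all genes 49.6% and 20.6%), and 3 were higher in the library labelled Erk-/- at MII (all genes 31.4%), among them Cpsf4l and Dazap1 (6.43, 10.4, 4.85 and 17.1 FPKM).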

How the data were processed

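The authors deposited FPKM with a lower and an upper bound for each gene, per the file headers, in 1 table per library. CASAVA 1.8, TopHat and mouse build mm9 are named, per the submitters' processing notes. The program behind FPKM, its annotation, the level of the bounds, strand and the handling of multi-mapped reads were not given in the sources used here. No counts are given, so depth is unknown; the median distance from the middle of the bounds to either bound was 8.83%, 9.73%, 8.16% and 8.71% of the value, over rows of at least 10 FPKM, in wild-type GV, Erk-/- GV, wild-type MII and labelled Erk-/- MII.

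Groups came from the sample labels. Rows sharing a symbol (260 symbols) were summed. File starts count from 0 (9169 of 21279 gene widths matched so, 558 otherwise), and 1 was added. Ratios were log2((FPKM + 1)/(FPKM + 1)), a scale that shrinks changes of low genes, over genes averaging 1 FPKM or more; a 2-fold rule of size replaced a test. Alternatives were a pseudocount of 0.1, median-of-ratios scaling over 5640 genes, a mean of at least 10 FPKM, no filter, and leaving out genes listed at 0. The genes named are the 10 genes, up to 3 genes per list of highest absolute ratio with at least 10 FPKM, from which the text takes a part, and the nearest profiles. Genes and lists were chosen with earlier results of these data known. Of the targeted genes, 1 is not reported here. 3′ untranslated regions and coordinates of the printed sequences are from GENCODE M21 transcripts (longest complete basic protein-coding transcript), matched by symbol for all 10 genes, not from mm9. Python 3.11.15, numpy 2.4.6, pandas 2.3.3 and matplotlib 3.10.9 were used, and the ratio code was tested on simulated data.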

Additional observations from a re-analysis of the deposited data

Results flagged for a closer look

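In 5 of the 10 genes, 4 of them among the 9 above the filter, and in 1 relative, the ratio of MII to GV had opposite signs in wild type and in the pair labelled Erk-/-; with 1 library per group this difference was not tested, and 25.8% of all 9990 genes showed it. For Cpsf1 the log2 ratios were -2.68 and 0.24, a difference of 2.92. For Cpeb3 they were -0.32 and 0.50 (difference 0.82), for Dazl -0.54 and 0.16 (0.70), for Cpsf2 -0.12 and 0.25 (0.37), for Cpeb2, below the filter, 0.38 and -0.02 (-0.40), and for Dazap1, an RNA-binding partner of DAZ proteins, -0.35 and 0.67 (1.02). The bounds of both libraries overlapped for Cpsf1, Dazl and Cpeb2 in the pair labelled Erk-/- and for Cpsf2 in wild type. Under median-of-ratios scaling the wild-type ratios of Cpeb3 and Cpsf2 turned to 0.14 and 0.33, so that their signs were no longer opposite.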

How the results depend on the processing

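No gene crossed the 2-fold rule in any comparison under any alternative that kept it. The direction turned under scaling for Cpeb3, Cpeb4 and Cpsf2 in the comparisons given in the report, and for the differences of maturation ratios of Cpeb4 (-0.29) and Cpsf2 (-0.04). In the order of maturation in wild type and labelled Erk-/-, genotype at GV and MII, and difference, medians were -1.40, 0.20, 0.13, 0.49 and 0.40 under median-of-ratios scaling. With a mean of at least 10 FPKM (8 genes, Cpsf1 left out) they were -1.19, -0.27 (a turned sign), 0.10, 0.77 and 0.76. The count lower in Erk-/- at GV went from 1 to 0, that lower in wild-type maturation from 5 to 4, and those higher at MII and for the difference from 4 to 3. With no filter (10 genes, Cpeb2 added) the medians were -1.19, 0.07, 0.10, 0.77 and 0.76. A pseudocount of 0.1 gave -2.00 (wild-type maturation), 0.89 (genotype at MII) and 0.88 (difference). Without genes listed at 0 (7 genes, Cpeb4 and Cpsf4 left out) the counts of higher genes went to 0 in both maturations and at GV. Lower genes then numbered 4 in wild-type maturation and 2 in the pair labelled Erk-/-, and 3 genes were higher at MII and for the difference. These moves follow from which genes enter a median of 7 to 10 values, except under scaling and the pseudocount. Single ratios moved by more than their bounds in 16 of 45 cases under scaling and in 11 of 45 with a pseudocount of 0.1, the most for genes listed at 0 (Cpsf4, wild-type maturation -4.35 to -7.61, difference 1.35 to 4.39). Every value rests on 1 library per group, the spread between pools of oocytes is unknown, and FPKM cannot show how much mRNA an oocyte holds. The precision is lowest for Cpeb2 and Cpsf1, with bounds wide against their values.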

Other observations

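The CPE itself was examined over all genes, a comparison added after the data were seen. Genes above the filter with a polyadenylation signal in the last 150 bases of the 3′ untranslated region were divided by whether those bases also held a CPE (1907 genes) or not (5138). In wild-type maturation 37.3% of genes with the CPE were at least 2-fold higher at MII and 27.5% lower, against 17.4% and 52.9% without it, with median log2 ratios of 0.35 and -1.19. In the pair labelled Erk-/- the shares were 35.2% higher and 21.0% lower with the CPE and 20.6% and 36.4% without it, with medians of 0.41 and -0.34. At MII, 15% of genes with the CPE were higher in the library labelled Erk-/- and 10.1% lower, against 34.1% and 5.98% without it, with medians of -0.06 and 0.44. At GV the medians between genotypes were -0.05 and -0.07. The groups also differ in base composition by construction, since the CPE is rich in T, and none of these differences was tested. All of the 10 genes of the report fall outside the CPE-bearing group, as none has a CPE in its last 150 bases.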
